A study of Mus musculus with 2 samples.

Results

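Germline genes that DNA methylation keeps off in body cells were examined in thymic invariant natural killer T (iNKT) cells that lack Uhrf1. The genes were taken from a list of 50 names of meiotic, piRNA pathway, sperm, Rhox, Xlr and early embryo genes, matched by symbol to the deposited tables. Of these names 33 were found among 16386 genes, and the other 17 are not analysed here (Asz1, Catsperb, Dmrtb1, Dpep3, Dppa3, Mael, Mov10l1, Rhox9, Rhox13, Stra8, Sycp1, Taf7l, Tdrd9, Xlr5a, Xlr5b, Xlr5c and Zfp42). RNA came from 2 groups of sorted stage 1 iNKT cells, Uhrf1 KO and wild type (WT), both from thymus of C57BL/6 mice aged 5 weeks. Each group was 1 library, so every difference below lacks replicates and is given without a p-value. The sources used here do not give the way Uhrf1 was deleted or the number of mice behind each library.

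Uhrf1 binds hemimethylated DNA behind the replication fork and brings in Dnmt1, which copies the methyl mark to the new strand. Many germline promoters are rich in CpG, are methylated in somatic cells and depend on that mark for silence, and genes such as Dazl, Ddx4 and Tex101 are often used to read its loss in mouse cells lacking Dnmt1. Other germline promoters are held mainly by a Polycomb complex that contains E2f6, Mga and Pcgf6, or by H3K9 methylation.

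Levels are given as FPKM, a level scaled to transcript length and library size, which can be compared between genes. Reads per gene were recovered from a second, scaled column, and totalled 12189861 in the KO and 26005836 in WT. Folds were taken between the scaled counts and carry 95% intervals (Clopper-Pearson) for counting error only, since PCR copies are not independent molecules. A gene is said to have risen or fallen where log2((KO FPKM + 1)/(WT FPKM + 1)) was 1 or more in size, and genes under FPKM 0.1 in WT are called silent there. Uhrf1 itself had an FPKM of 0.626 in the KO and 35.3 in WT. Its 25 KO reads and 3032 WT reads gave a level 56.8-fold lower in the KO (38.4 to 88.0). An FPKM of 0 was read only as listed at 0, because genes that most cells use, such as Sirt3, Alg9 and Rab4a (picked after their values were seen), were listed at 0 in the KO with WT FPKM of 16.3, 9.41 and 27.6. In all, 96 genes were listed at 0 in the KO with a WT FPKM of at least 10, and 102 genes were listed at 0 in WT with a KO FPKM of at least 10. The same doubt therefore touches the WT zeros of Rhox2a, Syce1, Tuba3a and Tuba3b, and no fold is given against a 0.

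A minority of the germline genes was higher in the KO, and the best known methylation-dependent ones stayed at or near 0 in both libraries. Of the 33 genes 9 rose (27.3%), namely Rhox2a, Syce1, Xlr3c, Tuba3b, Zcwpw1, Brdt, Xlr4b, Tuba3a and Xlr3b, and none fell. Among all genes 13.7% rose and 16.0% fell on the same rule. A fall on this rule needs a WT FPKM of at least 1, so only 6 of the 33 genes could fall. The lack of falls among the others was fixed by the rule. Without the Rhox, Xlr and Tuba3 families, whose members are close copies, 3 of 22 germline genes rose, which at 13.6% equals the 13.6% of all genes outside those families. A further 15 germline genes (Dazl, Tex101, Tdrd1, Hormad1, Slc25a31, Sycp2, Smc1b, Tex11, Tex19.1, Hspa2, Ldhc, Rhox5, Rhox6, Dppa2 and Dppa4) were listed at 0 in both libraries, as were 3125 of all 16386 genes. The median log2 ratio was 0 for the 33 genes and 0 for all genes.

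**Figure D1:**
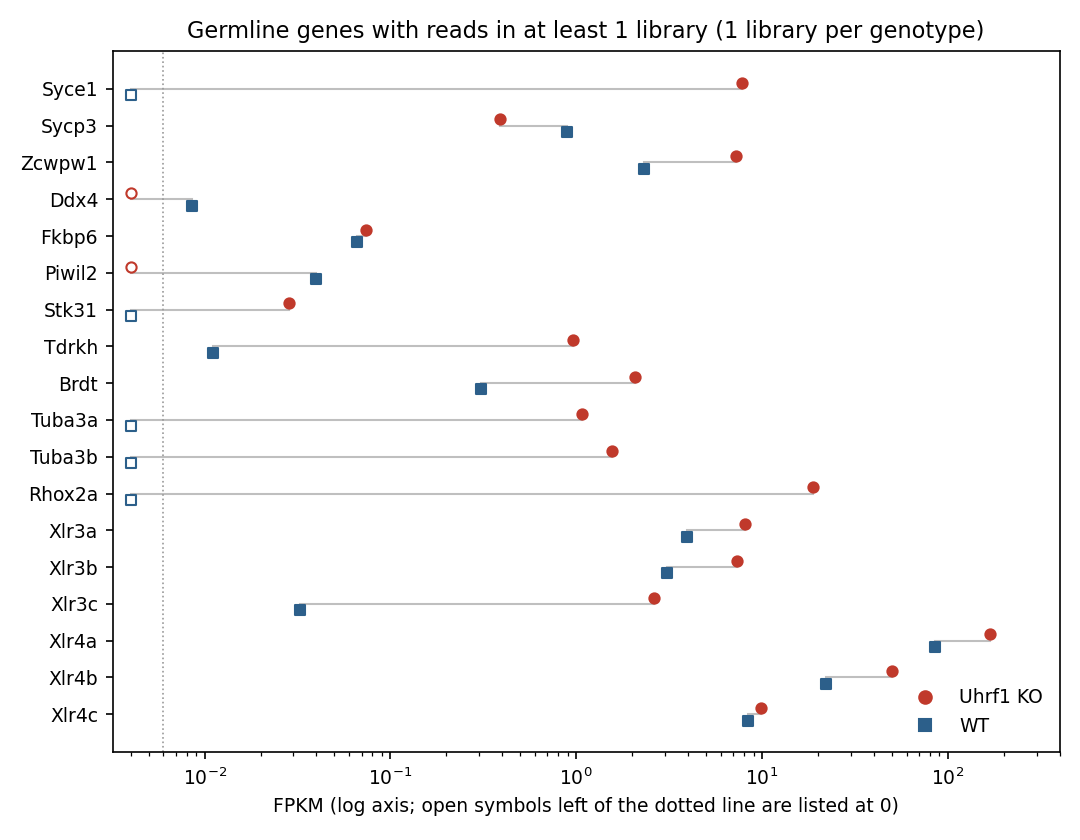
FPKM of the 18 germline genes with reads in at least 1 library, on a log axis, in the Uhrf1 KO library (red circles, upper) and the WT library (blue squares, lower); open symbols left of the dotted line are listed at 0. Rhox2a and Syce1 stand at 18.9 and 7.77 in the KO and are listed at 0 in WT, while the Xlr4 genes are well above FPKM 1 in both libraries.

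Separating the genes by their WT level gave 25 silent, 2 low (FPKM 0.1 to 1) and 6 expressed (FPKM of at least 1). Of the 25 silent in WT, 5 reached an FPKM of 1 in the KO, or 20.0%. Among all 5205 genes silent in WT, 504 did (9.68%); the size rule called the same 5 germline genes and 9.59% of all silent genes. Of the 20 germline genes listed at exactly 0 in WT 4 reached FPKM 1 (20.0%, against 8.57% of all such genes), and 17 of the 25 silent ones were listed at 0 in the KO (against 71.3% of all silent genes). In the mirror comparison, 896 of 5905 genes under FPKM 0.1 in the KO had an FPKM of at least 1 in WT (15.2%). Just inside the limit of FPKM 1 in the KO lay Tuba3a (1.08) and Tuba3b (1.55), and just outside it Tdrkh (0.956), with Fkbp6 next at 0.074. An FPKM of at least 5 in the KO was reached by 2 of the 25, Rhox2a and Syce1, and by 4.44% of all silent genes. Of the 6 genes expressed in WT 3 rose and none fell, where 14.2% of all genes expressed in WT rose and 27.7% fell.

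**Figure D2:**
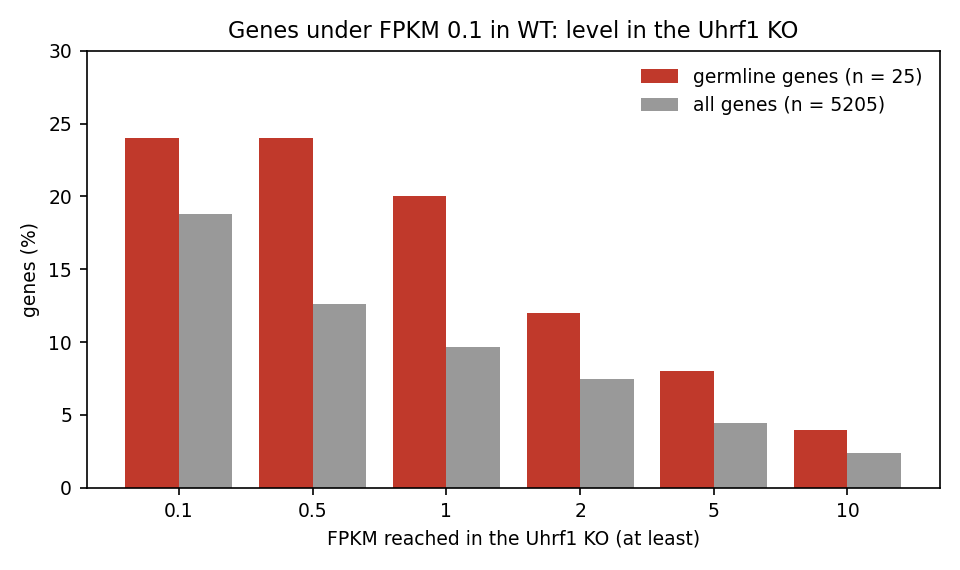
Percentage of genes under FPKM 0.1 in WT that reached each FPKM in the Uhrf1 KO, for 25 germline genes (red) and all 5205 such genes (grey). At FPKM 1 the bars stand at 20.0% and 9.68%; the red bars rest on 6 genes or fewer.

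Meiotic chromosome genes were represented by 7 of 8 names, of which 2 rose (28.6%, against 13.7% of all genes). Syce1, a central element protein of the synaptonemal complex (chromosome 7, 140777229 to 140787854), had an FPKM of 7.77 on 137 reads in the KO and was listed at 0 in WT. Its promoter window, 250 bases before to 50 after the annotated start (chr7:140787805-140788104, minus strand; RefSeq, GRCm38.p6), is shown 5′ to 3′ with CpG dinucleotides in capitals, beside that of Tex101, a sperm surface glycoprotein listed at 0 in both libraries (chr7:24672001-24672300, minus strand). The pair shows a gene with reads only in the KO and one with none.
Syce1: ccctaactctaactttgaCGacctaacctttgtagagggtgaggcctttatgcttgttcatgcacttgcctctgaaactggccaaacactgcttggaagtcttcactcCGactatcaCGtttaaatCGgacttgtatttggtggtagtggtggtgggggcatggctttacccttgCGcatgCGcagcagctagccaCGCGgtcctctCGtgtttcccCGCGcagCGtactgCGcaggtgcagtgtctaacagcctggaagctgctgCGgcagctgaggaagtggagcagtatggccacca
Tex101: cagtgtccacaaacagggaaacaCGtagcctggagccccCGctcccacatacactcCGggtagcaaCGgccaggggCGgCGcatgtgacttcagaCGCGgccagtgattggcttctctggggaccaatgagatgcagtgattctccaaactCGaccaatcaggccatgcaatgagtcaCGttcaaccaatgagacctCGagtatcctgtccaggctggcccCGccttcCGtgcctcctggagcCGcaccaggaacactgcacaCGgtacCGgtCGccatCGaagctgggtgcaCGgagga

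The Syce1 window held 14 CpGs and that of Tex101 19. Zcwpw1, a reader of histone marks at meiotic recombination sites, rose, with 7.22 in the KO and 2.31 in WT, or 2.99-fold by reads (2.41 to 3.71). It was expressed in both libraries and shares its locus in the tables with Pilra (4.30 in the KO and 2.93 in WT), so reads of these genes cannot be told apart where strand was not used. Sycp3, a lateral element protein, had 0.391 in the KO and 0.894 in WT on 10 and 47 reads, 2.20-fold lower in the KO (1.10 to 4.89) but short of the size rule, and shares its locus with Chpt1 (1.09 in the KO and 1.98 in WT). Sycp2, of the same element, Hormad1 of the meiotic axis, the meiotic cohesin Smc1b and the X-linked crossover gene Tex11 were listed at 0 in both libraries. Syce1 was thus the single one of these 7 genes with reads in the KO alone. Of the lateral element genes, Sycp2 was listed at 0 in both libraries and Sycp3 was lower in the KO. Syce2, a meiotic gene outside the 50 names, was expressed in both, with 43.4 in the KO and 54.9 in WT. It shares its locus with another gene.

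None of the 7 piRNA pathway and germ granule genes in the tables rose or fell. All 7 were silent in WT and so could not fall on the size rule. Of all genes silent in WT 9.59% rose. Tdrkh, a tudor protein that anchors PIWI proteins at mitochondria, came nearest, with an FPKM of 0.956 on 40 reads in the KO and 0.011 on 1 read in WT. The ratio was 85.3, with an interval of 14.5 to 3454, and its log2 ratio of 0.95 missed the size rule. Ddx4, the vasa helicase, was listed at 0 in the KO and had 1 read in WT. Piwil2, a PIWI protein that binds piRNAs, was listed at 0 in the KO and had 6 reads in WT. Fkbp6 had 1 read in the KO and 2 in WT, Stk31 had 2 in the KO and none in WT, and Tdrd1 and Tex19.1 were listed at 0 in both. Apart from Tdrkh, none of these genes had more than 2 reads in the KO.

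Of the germ cell regulators, Brdt and Dazl were in the tables. Brdt, the testis bromodomain protein of the BET family, rose, with an FPKM of 2.07 on 193 reads in the KO and 0.308 on 59 reads in WT, or 6.98-fold (5.19 to 9.51). It had reads in both libraries and was low rather than silent in WT. Dazl, an RNA-binding protein of germ cells and a standard readout of lost promoter methylation, was listed at 0 in both. Its window is shown because it is the most CpG-rich of those printed, with 28 CpGs (chr17:50293571-50293870, minus strand).
Dazl: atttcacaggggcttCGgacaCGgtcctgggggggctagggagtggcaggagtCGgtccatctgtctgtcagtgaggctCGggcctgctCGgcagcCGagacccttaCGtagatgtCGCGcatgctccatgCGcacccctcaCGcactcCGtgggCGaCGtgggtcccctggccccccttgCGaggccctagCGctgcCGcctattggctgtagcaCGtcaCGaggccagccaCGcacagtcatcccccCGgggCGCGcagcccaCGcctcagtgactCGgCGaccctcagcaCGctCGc

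Sperm and testis proteins gave 2 rises in 6 genes, both of them testis alpha-tubulins. All 6 were silent in WT, and the share of 33.3% stands against 9.59% of all silent genes. Tuba3b had an FPKM of 1.55 on 20 reads in the KO and was listed at 0 in WT. Tuba3a had 1.08 on 13 reads in the KO and was listed at 0 in WT. These are close copies of each other, so reads may be split between them. Their promoter windows aligned with 70.2% identity over 289 columns and held 12 CpGs (Tuba3a, chr6:125286032-125286331, minus strand) and 16 (Tuba3b, chr6:145615713-145616012, plus strand).
Tuba3a: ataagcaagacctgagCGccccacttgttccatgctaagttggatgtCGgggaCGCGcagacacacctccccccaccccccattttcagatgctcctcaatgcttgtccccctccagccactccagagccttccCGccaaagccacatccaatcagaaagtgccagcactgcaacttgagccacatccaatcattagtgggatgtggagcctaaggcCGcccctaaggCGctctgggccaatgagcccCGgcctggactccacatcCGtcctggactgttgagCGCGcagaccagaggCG
Tuba3b: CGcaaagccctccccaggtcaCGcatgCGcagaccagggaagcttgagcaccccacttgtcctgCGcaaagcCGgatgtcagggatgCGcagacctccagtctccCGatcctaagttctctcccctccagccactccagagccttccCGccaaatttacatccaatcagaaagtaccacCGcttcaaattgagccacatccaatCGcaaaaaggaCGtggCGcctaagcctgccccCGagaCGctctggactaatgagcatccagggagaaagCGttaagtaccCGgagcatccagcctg

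Tex101, the germ cell lactate dehydrogenase Ldhc, the testis chaperone Hspa2 and the testis ADP/ATP carrier Slc25a31 were listed at 0 in both libraries. The 2 tubulin genes lie far apart on chromosome 6 (125278270 to 125286081 for Tuba3a, 145615963 to 145621477 for Tuba3b), and neither gene beside either of them had an FPKM above 0.034 in either library.

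The Rhox genes, a cluster of reproductive homeobox genes on chromosome X, gave the largest rise of the 33 genes. Rhox2a (37244992 to 37249690) had an FPKM of 18.9 on 138 reads in the KO and was listed at 0 in WT. Rhox5, the founding member and a known target of DNA methylation, and Rhox6 were listed at 0 in both. The window of Rhox2a held 8 CpGs (chrX:37244742-37245041, plus strand) and stands for its copies too, as its alignments with 6 other Rhox2 windows were 94.3% to 100% identical.
Rhox2a: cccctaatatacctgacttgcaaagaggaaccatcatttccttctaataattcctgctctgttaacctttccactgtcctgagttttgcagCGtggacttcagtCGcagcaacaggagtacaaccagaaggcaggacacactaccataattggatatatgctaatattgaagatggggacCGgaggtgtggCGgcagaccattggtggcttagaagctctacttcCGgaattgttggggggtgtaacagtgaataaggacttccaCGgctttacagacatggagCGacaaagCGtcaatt

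The 13 Rhox genes found were divided as well, as 10 had reads in the KO and 3 were listed at 0 in both libraries. Rhox4a, between Rhox2a and Rhox2b, had 2 reads in the KO and none in WT. All 8 Rhox2 genes had reads in the KO (228 together) and none in WT. Beside Rhox2a, Rhox2b reached 8.30, Rhox2e 1.34, Rhox2c 0.916 and Rhox2f 0.787 in the KO, and Rhox2d, Rhox2g and Rhox2h had 1 or 2 reads each. Because these genes are copies with nearly identical promoter windows, the split of reads among them is uncertain. Their total does not depend on that split. It may depend on how reads matching several copies were counted, which the sources used here do not give. Rhox8, the last along the chromosome of the 13 Rhox genes found, rose, with 3.56 in the KO and 0.065 in WT on 47 and 2 reads (ratio 50.1, 13.1 to 426). Rhox5, Rhox6 and Rhox7, which lie between Rhox2h and Rhox8, were all listed at 0 in both libraries. Rnf113a1, the gene before Rhox2a, fell, being listed at 0 in the KO against 7.11 in WT.

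**Figure D3:**
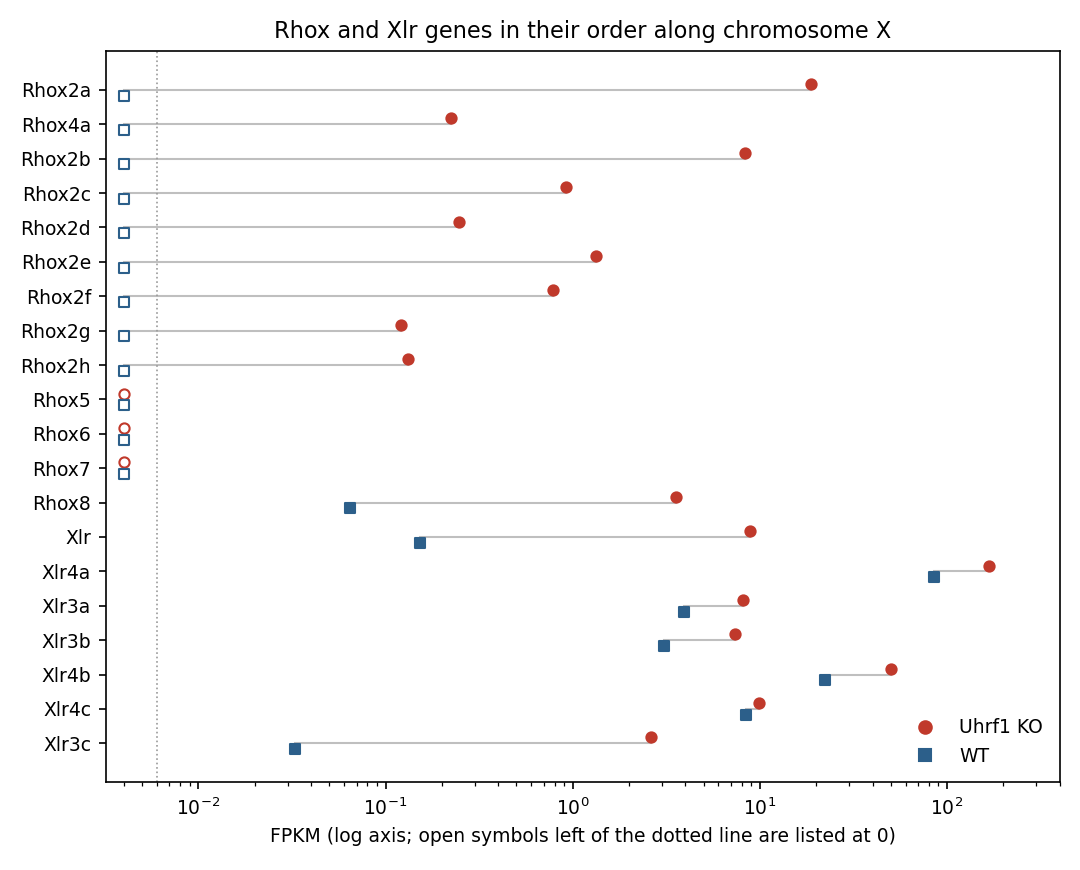
FPKM on a log axis of every Rhox and Xlr gene in the tables, top to bottom in their order along chromosome X, in the Uhrf1 KO (red circles, upper) and WT (blue squares, lower); open symbols left of the dotted line are listed at 0. The 8 Rhox2 genes and Rhox4a have reads in the KO alone, and Rhox5, Rhox6 and Rhox7 have none. Rhox8 and the Xlr3 and Xlr4 genes have reads in both, Rhox8 and Xlr3c with 2 reads each in WT.

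The Xlr genes (X-linked lymphocyte regulated, related to the synaptonemal protein Sycp3) were different, because 5 of the 6 in the tables were already expressed in WT. All 6 were higher in the KO and 3 rose. Xlr4a had 167.9 in the KO and 85.6 in WT, a ratio of 2.0 (1.91 to 2.09) whose log2 ratio of 0.96 missed the size rule. Xlr4b rose, with 49.9 in the KO and 22.2 in WT, or 2.28-fold (2.09 to 2.48). Xlr4c, the third copy, had 9.86 in the KO and 8.42 in WT, or 1.19-fold (0.997 to 1.41), an interval that includes no change. In sum the Xlr4 genes had an FPKM of 227.7 in the KO and 116.2 in WT.

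Xlr3c, silent in WT, rose, while its copies were expressed in both libraries. It had an FPKM of 2.61 on 76 reads in the KO and 0.033 on 2 reads in WT, a ratio of 81.1 (21.7 to 682). Xlr3b rose as well, with 7.33 in the KO and 3.09 in WT, or 2.42-fold (1.98 to 2.96). Xlr3a had 8.11 in the KO and 3.96 in WT, or 2.08-fold (1.73 to 2.50), short of the size rule. The Xlr3 windows are printed for comparison, since the genes differ in WT level despite similar promoters: Xlr3b and Xlr3c were 94.3% identical over 280 aligned columns, Xlr3a and Xlr3c 88.6% over 236, and Xlr3a and Xlr3b 87.5% over 256 (chrX:73097046-73097345, minus strand; chrX:73191929-73192228, plus strand; chrX:73265341-73265640, minus strand).
Xlr3a: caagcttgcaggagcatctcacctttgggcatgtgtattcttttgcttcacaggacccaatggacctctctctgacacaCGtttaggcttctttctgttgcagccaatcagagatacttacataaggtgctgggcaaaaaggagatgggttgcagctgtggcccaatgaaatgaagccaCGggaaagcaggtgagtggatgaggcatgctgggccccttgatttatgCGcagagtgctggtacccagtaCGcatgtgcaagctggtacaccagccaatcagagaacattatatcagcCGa
Xlr3b: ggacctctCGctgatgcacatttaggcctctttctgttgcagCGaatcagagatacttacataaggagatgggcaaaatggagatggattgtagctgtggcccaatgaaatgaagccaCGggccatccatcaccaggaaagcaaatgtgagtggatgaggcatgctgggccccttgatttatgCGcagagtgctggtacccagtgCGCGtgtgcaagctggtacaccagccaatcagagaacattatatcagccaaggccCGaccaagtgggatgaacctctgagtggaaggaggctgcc
Xlr3c: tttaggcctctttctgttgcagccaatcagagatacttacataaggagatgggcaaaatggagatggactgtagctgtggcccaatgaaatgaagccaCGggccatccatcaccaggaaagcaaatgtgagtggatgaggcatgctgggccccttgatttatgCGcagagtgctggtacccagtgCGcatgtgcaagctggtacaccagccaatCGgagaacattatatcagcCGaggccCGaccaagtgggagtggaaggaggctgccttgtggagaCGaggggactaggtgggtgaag

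They held 5, 7 and 7 CpGs for Xlr3a, Xlr3b and Xlr3c. Reads of such copies can be assigned to the wrong one, so the separate values of Xlr3a, Xlr3b and Xlr3c are uncertain; the Xlr3 sum was 18.1 in the KO and 7.08 in WT. The related gene Xlr, on the same chromosome and outside the list of 50, rose, with 8.83 in the KO and 0.153 in WT on 196 and 7 reads (59.7-fold, 28.5 to 151). Of the 10 germline genes on chromosome X 4 rose, and of the 23 on autosomes 5 rose. Among all genes 13.3% of X-linked and 13.7% of autosomal ones rose. Of the 5 X-linked germline genes silent in WT 2 (Rhox2a and Xlr3c) reached FPKM 1 in the KO, against 10.2% of all X-linked silent genes.

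The pluripotency genes Dppa2 and Dppa4, which occupy neighbouring places on chromosome 16 and are active in the early embryo and germ cells, were listed at 0 in both libraries. No gene of this role had a read.

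Promoter windows were matched by gene identifier for 28 of the 33 genes; Dppa2, Dppa4, Piwil2, Rhox6 and Tex11 had no entry. The 5 genes silent in WT that reached FPKM 1 in the KO had 7 to 16 CpGs, with a median of 12. The 15 silent genes that did not had 5 to 38, with a median of 21. Over all genes silent in WT these medians were 14 (378 genes reaching FPKM 1 in the KO) and 10 (3511 genes not reaching it), so the order was the opposite in the germline genes. That order rests on 5 genes, all but Syce1 from the Rhox, Xlr and Tuba3 families. Tdrkh, just short of FPKM 1 in the KO, had 25 CpGs. Of the genes that rose without being silent in WT, Brdt and Zcwpw1 had 23 each, Xlr3b 7 and Xlr4b 8. The genes with the most CpGs, Ddx4 with 38, Smc1b with 29, and Dazl and Stk31 with 28 each, had at most 2 reads in either library.

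**Figure D4:**
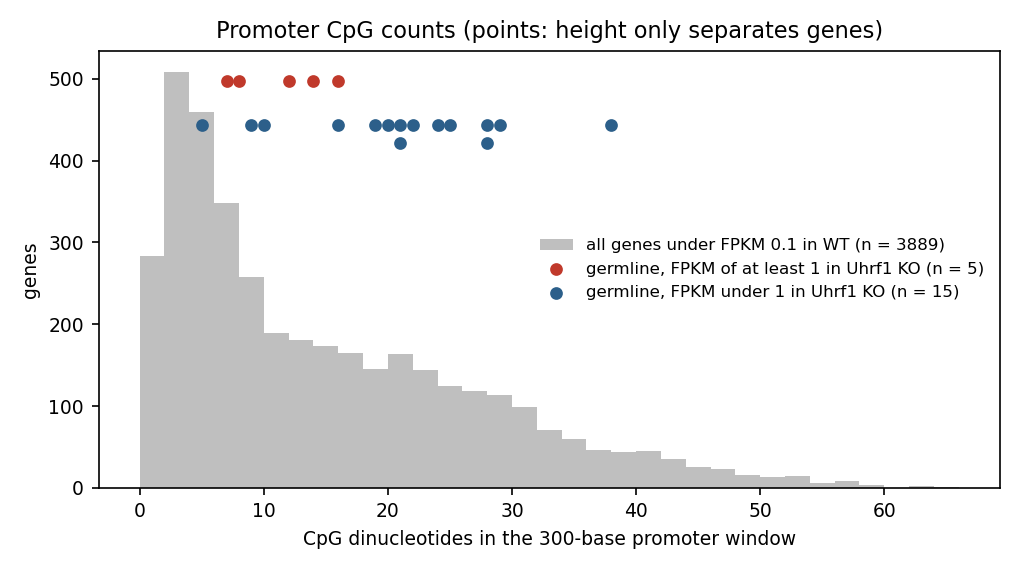
Histogram of CpG counts in the promoter windows of all 3889 genes under FPKM 0.1 in WT (grey), with the germline genes that reached FPKM 1 in the Uhrf1 KO (red points, 5 genes) and those that did not (blue points, 15 genes); point height only separates genes. The red points lie between 7 and 16 CpGs and the blue ones between 5 and 38.

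The windows were also searched on both strands for CACGTG, an E-box, for GCGGGA, part of the E2F consensus, and for TGACGTCA, the cyclic AMP response element. CACGTG and TGACGTCA share the letters ACGT, and no germline window held both. CACGTG was found in 8 of the 28 windows (28.6%, against 9.45% of all 12843 windows): Brdt, Ddx4, Fkbp6, Hormad1, Slc25a31, Stk31, Sycp3 and Tdrd1. Of these 8 genes Brdt alone rose. None of the 5 silent genes that reached FPKM 1 in the KO held it, and 6 of the 15 that did not (40.0%) held it. Over all genes silent in WT these shares were 7.67% of the 378 that reached FPKM 1 and 7.41% of the 3511 that did not. GCGGGA was in 8 of 28 (28.6%, against 32.6% of all), Tuba3a and Tuba3b among them, and TGACGTCA in none of the 28 (2.91% of all). A match is a stretch of letters and not a shown binding site.

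The nearest gene on each side was examined for the 9 genes that rose and for Tdrkh, which came close. Of 17 such neighbours outside the list 2 rose and 3 fell, where 13.7% of all genes rose and 16.0% fell. Cyp2e1, before Syce1, had 1.53 in the KO and 0.225 in WT, and Tgfbr3, before Brdt, had 12.3 in the KO and 0.649 in WT. Those that fell were Lingo4 beside Tdrkh, Rnf113a1 beside Rhox2a and Zfp275 beside Xlr3c.

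A second list of 63 germline genes outside the 50 names moved both ways. Of its 42 genes found there, 3 rose and 3 fell (7.14% each, against 13.7% and 16.0% of all genes), and 20 were listed at 0 in both libraries. Only 5 of the 42 had the WT FPKM of at least 1 that a fall needs, and the 3 falls were among these 5. Of all genes expressed in WT 27.7% fell, so falls were not rarer in this list than among other genes able to fall. Ybx2, an RNA-binding protein of germ cells, rose, with 12.5 in the KO and 0.081 in WT on 135 and 2 reads (ratio 144, 39.1 to 1201). Spo11, which makes the meiotic double-strand breaks, rose, with 3.69 in the KO and 0.358 in WT (10.8-fold, 6.70 to 18.1). Ddx25, a testis RNA helicase, rose, with 1.98 in the KO on 40 reads, and was listed at 0 in WT. The tudor genes Tdrd5 and Tdrd7 and the intercellular bridge gene Tex14 fell, being listed at 0 in the KO with WT FPKM of 4.68, 1.04 and 1.74. Of the 30 that were silent in WT, 2 reached FPKM 1 in the KO (6.67%), near the 9.68% of all silent genes.

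Among 24 genes that repress germline promoters or maintain methylation 3 rose and 6 fell, Uhrf1 included. Of these 24 genes 23 were expressed in WT, and of all genes expressed in WT 14.2% rose and 27.7% fell. The counts among the repressors were near these shares, so the list as a whole did not stand apart from other expressed genes. Subunits of the E2f6 Polycomb complex went both ways. E2f6 rose, with 15.2 in the KO and 6.58 in WT, and L3mbtl2 rose, with 21.7 in the KO and 4.76 in WT. Pcgf6 fell, with 4.79 in the KO and 11.4 in WT, as did its partners Ring1 (5.40 in the KO and 14.5 in WT) and Rnf2 (4.74 in the KO and 11.8 in WT). Mga had 5.91 in the KO and 6.21 in WT, and Max had 22.0 in the KO and 25.1 in WT. Ehmt2, an H3K9 methyltransferase, fell, with 31.8 in the KO and 78.8 in WT, the methyl-CpG binder Zbtb38 fell, with 3.13 in the KO and 9.30 in WT, and the deacetylase Hdac2 rose, with 73.3 in the KO and 29.2 in WT. Dnmt1 had 43.6 in the KO and 61.1 in WT.

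Markers of other cells moved with the same libraries. T cell markers were present in both libraries, and of 9 of them 3 rose (Cd2, Cd5 and Lck) and 1 fell (Zap70, 110.1 in the KO and 328 in WT). Cd2 had 826 in the KO and 147 in WT, and Cd3e had 271 in the KO and 240 in WT. Meanwhile 5 of 7 iNKT markers fell and 8 of 10 naive conventional T cell markers rose. Of 9 double-positive thymocyte markers 6 fell and none rose. Their summed FPKM went the other way, with 479 in the KO and 401 in WT. Cd8b1 made up 367 of that sum in the KO and 237 in WT, and Cd8a had 67.2 in the KO and 52.6 in WT. The markers of these 4 T-lineage lists were all expressed in WT, and of all genes expressed in WT 14.2% rose and 27.7% fell. Summed FPKM of 15 myeloid and dendritic cell markers was 3109 in the KO and 510 in WT (8 rose, 2 fell, Cd14 and Itgax at 0 in both). Apoe alone made up 2677 of that sum in the KO and 246 in WT, and the genes that fell were S100a8 (listed at 0 in the KO and 86.4 in WT) and S100a9 (0.908 in the KO and 95.6 in WT). The sum of 7 erythroid markers was 1190 in the KO and 320 in WT (4 rose, none fell, Car1 and Klf1 at 0 in both), and that of 8 mesenchymal markers 73.7 in the KO and 26.1 in WT (3 rose, none fell, Pdgfra at 0 in both).

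Medullary thymic epithelium is known to transcribe tissue-restricted genes, germline ones among them, under Aire. The marker list covers thymic epithelium in general and does not single out the medullary kind. Of its 10 markers 2 rose (Cldn3 and Krt18) and 1 fell (Epcam), and their sum was 42.6 in the KO and 15.5 in WT. Aire and Krt8 were listed at 0 in both libraries, and Epcam and Krt5 at 0 in the KO. B cell markers summed to 93.5 in the KO and 82.1 in WT (1 rose and 1 fell of 7; Ebf1, Ms4a1 and Pax5 at 0 in both). Of 4 spermatogenic markers none rose or fell; Prm1 and Zpbp were listed at 0 in both, and Tnp2 had 28.8 in the KO and 28.5 in WT. The part of these other cells in the germline values was not tested, and a difference in cell mixture and one in RNA per cell cannot be told apart in bulk libraries.

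**Figure D5:**
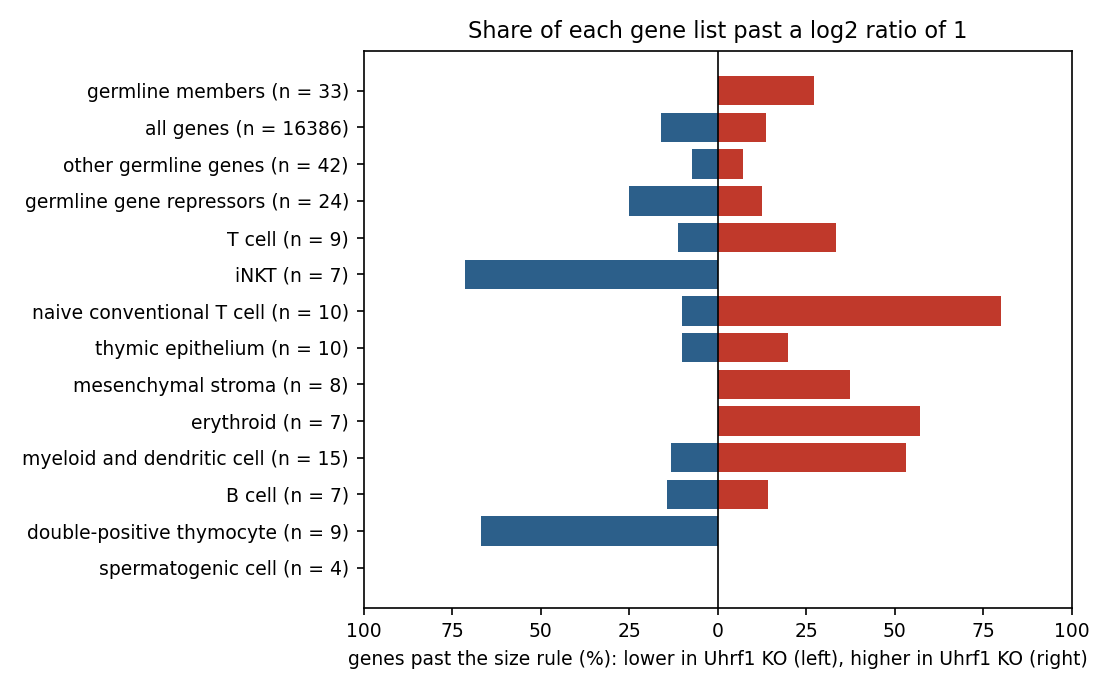
Percentage of genes in each list that were higher (right, red) or lower (left, blue) in the Uhrf1 KO than in WT by a log2 ratio of at least 1, over the genes found in the tables. The germline genes have 27.3% higher and none lower, all genes 13.7% and 16.0%, and several marker lists, among them naive conventional T cell and myeloid, have a larger share higher than the germline genes. Only genes with a WT FPKM of at least 1 can be lower on this rule, which holds for 6 of the 33 germline genes.

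The count of 9 depends on low and related genes: the 3 that rose outside the Rhox, Xlr and Tuba3 families were Syce1, Zcwpw1 and Brdt, and of 19 silent genes outside them 1, Syce1, reached FPKM 1 in the KO (5.26%, against 9.58% of all such genes). With a pseudocount of 5 instead of 1, which weighs low genes less, 3 genes rose (Rhox2a, Syce1 and Xlr4b; 9.09%, against 7.88% of all genes). With the KO scaled to the WT upper quartile 6 rose, against 12.1% of all genes, and Tuba3a (0.98), Xlr3b (0.91) and Xlr4b (1.00 after rounding) no longer met the size rule. On scaled counts in place of FPKM Tuba3a and Tuba3b, with log2 ratios of 0.47 and 0.67, did not meet it and Tdrkh, with 1.11, did.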

How the data were processed

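Per the labels' protocols, RNA of sorted thymic stage 1 iNKT cells was taken up in Trizol, and TruSeq RNA libraries were prepared from it. TopHat2 2.0.9, Cufflinks 2.1.1 and mm10 are named in the submitters' processing notes, with no role; the sources used here do not give annotation, strand or multimapping settings. The authors deposited FPKM per gene, per the file headers. A second deposited column, headed as a count, is a scaled signal: dividing by its commonest low value (1.70 in the KO, 0.799 in WT) gave whole reads, within 0.01, for 98.8% and 98.3% of nonzero genes. No count model was fitted.

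The 33 genes were matched by symbol. Members and gene lists were chosen with earlier results of these data known. Every member in the tables is accounted for; of the other germline genes and repressors, those past the size rule are named, with a few well known members. 1 erythroid and 1 B cell marker are not reported here and were left out of those lists. No filter on low values was used. RefSeq (GRCm38.p6, the mm10 assembly) gave coordinates and, for 12843 genes, 1 promoter window of 300 bases, the one nearest the locus start. Windows were aligned globally with free end gaps. The size rule and intervals were tested on simulated reads of genes with a WT FPKM of at least 5. That simulation did not cover genes silent or low in WT, as most of the germline genes are. Scripts ran in Python 3.11.15 with scipy 1.17.1, numpy 2.4.6, matplotlib 3.10.9 and pandas 2.3.3. Alternatives in pseudocount, filter, scale, size rule and membership were run.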

Additional observations from a re-analysis of the deposited data

How the results depend on the processing

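No paired analysis was possible because each genotype had 1 library. The count of germline genes that rose (9) was 3 of 33 with a pseudocount of 5 (9.09%, all genes 7.88%), 3 of 6 with a mean FPKM of at least 5 (all genes 20.3%), 3 of 22 without the Rhox, Xlr and Tuba3 families (13.6%, all genes 13.6%), and 2 of 33 with a size rule of 2 (6.06%, all genes 5.19%). None fell, except 1 (Sycp3) with a pseudocount of 0.1. The median log2 ratio of 0 was 1.18 over the 10 genes whose mean FPKM reached 1, 0.996 over those whose mean reached 5, and 0.996 over the 18 with reads, a choice made after the data were seen; these limits leave out genes at 0 by construction. Of the 25 silent genes, 5 reached FPKM 1 in the KO. A mean FPKM of at least 1 kept 3 silent genes, and one of at least 5 kept 1. All of those kept reached FPKM 1 by construction, since a gene silent in WT passes such a mean only where the KO is high. Without those families 1 of 19 silent genes reached FPKM 1. In the full list 3 of the 25 reached FPKM 2, a limit also chosen after the data were seen. Of genes expressed in WT, 3 rose; 1 did with a pseudocount of 5, with upper-quartile scaling or without those families, none with a size rule of 2, and 5 with a size rule of 0.5. Upper-quartile scaling shifted the KO by -0.14 (log2) and left all 6 Xlr genes higher in the KO. The cause of these moves was not otherwise tested. A listed 0 sets no limit on a level, and 1 library per genotype limits every comparison.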

Other observations

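Further genes of germ cells were picked after their values were seen. Catsperd, an auxiliary subunit of the sperm calcium channel, had an FPKM of 6.07 on 213 reads in the KO and 1.19 on 90 reads in WT (5.05-fold, interval 3.93 to 6.53). Tex19.2, the neighbouring copy of Tex19.1, had 0.582 on 11 reads in the KO and was listed at 0 in WT, while Tex19.1 was listed at 0 in both libraries. Hfm1, a meiotic helicase on the same chromosome as Brdt, was listed at 0 in both.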
